A study of Mus musculus with 6 samples.

Results

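A set of 10 surface receptor genes used to stage early B cells were examined: Il7r, Crlf2, Il2ra, Kit, Flt3, Bst1, Enpep, Ly6d, Cd93 and Spn. They were chosen by name, as genes for proteins found on pro-B and pre-B cells, with earlier results of these data known, and all 10 were measured among 19938 genes, each by 1 probe set. Expression was profiled on 6 one-colour Affymetrix Mouse Gene 1.0 ST arrays, in 3 groups of 2. All 6 samples came from Eµ-Myc mice, in which the immunoglobulin heavy chain enhancer Eµ drives the Myc oncogene in B-lineage cells. One group was primary lymphomas with the short hairpin RNA shEzh2.781, another was primary lymphomas with shEzh2.556, and the third was sorted splenic B cells of premalignant mice without a hairpin. Both hairpins target Ezh2, the polycomb methyltransferase that places the repressive mark on a lysine of histone H3. Strain, age and sex were not given in the labels.

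The lymphoma cells had been purified with CD43 beads, which remove CD43-bearing cells, and flow cytometry put them at 95% or more positive for B220 and GFP. CD43 is the product of Spn, 1 of the 10 genes. The beads remove whole cells, so the selection was not limited to Spn. Its part in the results of the other receptor genes was not tested. The premalignant cells were 2 independent preparations. Their characteristics label calls them normal control B cells, whereas their titles and source call them premalignant Eµ-Myc cells, and the titles were followed. Nothing in the labels states that the pair of arrays for each hairpin represents separate animals. The p-values then measure only how these samples vary, part of which may be technical. Lymphomas free of an Ezh2 hairpin were not analysed here. Malignancy, the hairpin and the method of cell preparation therefore cannot be told apart in any comparison with premalignant cells. The 2 hairpin comparisons with premalignant cells also share the same 2 premalignant arrays. Ezh2 itself had log2 signals of 10.92 and 11.07 with shEzh2.781 and 11.20 and 11.30 with shEzh2.556, against 12.64 and 12.70 in premalignant cells, a difference of -1.55 (SE 0.10, adjusted p = 1.31e-06).

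B cell precursors in the bone marrow are ordered by the receptors they carry. The earliest committed pro-B cells carry KIT and FLT3 at falling levels together with the interleukin-7 receptor and CD43. Cells that have rearranged a heavy chain gene pass through a dividing pre-B stage that carries BP-1 and BP-3 (the products of Enpep and Bst1) and then a resting pre-B stage marked by CD25 (the product of Il2ra). Interleukin-7 is the main growth and survival signal of these stages in mice. CD93 persists longer, on immature B cells that have reached the spleen. Premalignant Eµ-Myc mice are known for an enlarged pool of dividing pre-B cells, and the spleen of such mice can hold precursors that a healthy spleen largely lacks.

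Most of the 10 receptor genes had lower signal in the lymphomas. With the hairpin groups averaged against premalignant cells, 7 of 10 genes were lower (Il7r, Bst1, Enpep, Kit, Flt3, Il2ra and Ly6d), 1 was higher (Cd93) and 2 did not pass the test (Crlf2 and Spn). Over all genes tested, 9.61% were called lower and 5.6% higher in that comparison. A call means an adjusted p under 0.05 in the limma fit of the 3 groups, with Benjamini-Hochberg adjustment over all genes. Single arrays moved these counts: without premalignant array 2 the genes called were Enpep, Il2ra, Ly6d and Cd93, and on leaving out shEzh2.556 array 2 they were Il7r, Enpep, Flt3, Il2ra and Ly6d. With the 4 lymphomas fitted as 1 group they were Enpep and Il2ra. With all arrays, the median log2 difference was -0.70 over the 10 genes and 0.03 over all genes. The 7 falls did not have the same form, since Enpep and Il2ra were low with both hairpins, while Il7r and Bst1 were low with shEzh2.556 and their shEzh2.781 arrays overlapped the premalignant ones. These were bulk samples, in which fewer cells carrying a receptor and less RNA per cell cannot be told apart.

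**Figure D1:**
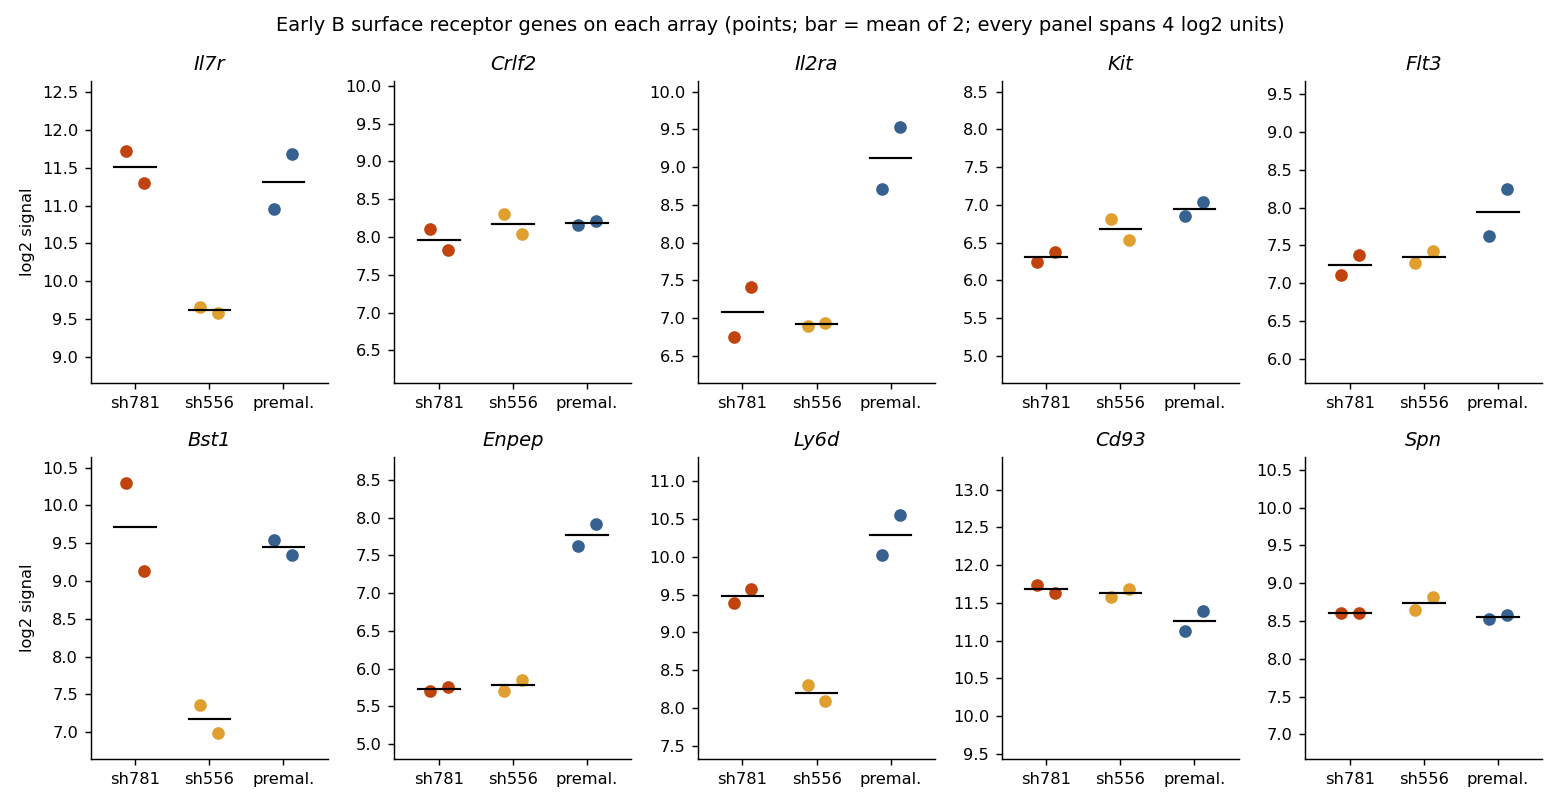
Log2 signal (vertical axis) of the 10 receptor genes on each of the 6 arrays, 1 panel per gene, with shEzh2.781 lymphomas, shEzh2.556 lymphomas and premalignant cells from left to right. Points are arrays and bars are means of 2. Enpep and Il2ra are low on all 4 lymphoma arrays, Il7r and Bst1 are low on the shEzh2.556 arrays, and Spn and Crlf2 hardly differ between groups.

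Read array by array, 5 of 10 genes had all 4 lymphoma arrays below both premalignant arrays (Enpep, Kit, Flt3, Il2ra and Ly6d), and 16.1% of all genes did. For 2 genes (Cd93 and Spn) all 4 lymphoma arrays lay above both premalignant arrays, as did 12.7% of all genes. The arrays of Il7r, Bst1 and Crlf2 overlapped between lymphomas and premalignant cells. By hairpin, shEzh2.781 lymphomas had 5 of 10 genes lower and 1 higher than premalignant cells, against 6.24% and 4.6% of all genes, and the 6 calls were 3 without premalignant array 2 and 4 when shEzh2.781 array 1 was left out. shEzh2.556 lymphomas had 6 of 10 lower and 0 higher (7 of 10 at an unadjusted p under 0.05), against 11.4% and 6.8% of all genes. The median log2 difference of the 10 genes was -0.43 with shEzh2.781 and -1.15 with shEzh2.556, beside -0.03 and 0.07 over all genes.

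The 250 bases before the transcription start are shown for 3 genes that had a promoter in the table used: Il7r, which differed between the hairpins, and Enpep and Il2ra, which were low with both. Capitals mark motif matches, and the sequences run 5′ to 3′ along the gene's strand (RefSeq, build GRCm38.p6). They lie at chr15:9529877-9530126 on the minus strand for Il7r, chr3:129332750-129332999 on the minus strand for Enpep and chr2:11642542-11642791 on the plus strand for Il2ra.
Il7r: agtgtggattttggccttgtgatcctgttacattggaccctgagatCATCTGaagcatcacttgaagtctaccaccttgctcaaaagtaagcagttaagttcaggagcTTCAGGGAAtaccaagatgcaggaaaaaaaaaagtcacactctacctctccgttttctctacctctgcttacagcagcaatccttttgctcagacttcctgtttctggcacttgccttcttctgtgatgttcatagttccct
Enpep: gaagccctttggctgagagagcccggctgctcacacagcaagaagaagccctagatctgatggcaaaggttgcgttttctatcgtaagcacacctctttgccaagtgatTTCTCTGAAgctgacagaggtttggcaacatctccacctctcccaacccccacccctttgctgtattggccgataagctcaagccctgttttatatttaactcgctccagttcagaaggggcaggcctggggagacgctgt
Il2ra: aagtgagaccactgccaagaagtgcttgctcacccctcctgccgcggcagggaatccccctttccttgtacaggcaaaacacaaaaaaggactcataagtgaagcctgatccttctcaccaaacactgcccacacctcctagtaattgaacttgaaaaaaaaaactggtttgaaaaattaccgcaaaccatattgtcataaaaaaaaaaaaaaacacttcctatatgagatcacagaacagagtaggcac

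Both strands were searched for the letters CCCNNGGG (EBF1), CANCTG (the E-box read by TCF3), TTCNNNGAA (STAT5), GTAAACA (FOXO1), TGGGAA (IKZF1) and TGTGGT (RUNX1), where N is any base. Il7r held 1 E-box and 1 STAT5 match, Enpep held 1 STAT5 match, and Il2ra held none of the 6. The STAT5 letters stood 142 to 134 bases before the start of Il7r and 141 to 133 bases before that of Enpep. No match overlapped another in these 3 windows. Of the 10 genes, 7 had a promoter in the table (Bst1, Cd93 and Ly6d did not). Among those 7, EBF1, E-box and STAT5 letters each occurred in 2 genes, IKZF1 and RUNX1 letters in 1 each, and FOXO1 letters in 0. Over 32851 promoters of the same length the shares were 11.8% for EBF1, 44.8% for the E-box, 7.02% for STAT5, 3.17% for FOXO1, 21.6% for IKZF1 and 14.0% for RUNX1. These matches describe letters only, and the arrays hold no binding data.

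The cytokine receptor genes were Il7r, Crlf2 and Il2ra. Il7r encodes the alpha chain of the interleukin-7 receptor, which pro-B and pre-B cells of mice need for growth. Its log2 signal was 11.72 and 11.30 in shEzh2.781 lymphomas and 9.66 and 9.58 in shEzh2.556 lymphomas, against 10.95 and 11.68 in premalignant cells. The shEzh2.781 arrays overlapped the premalignant ones, and both shEzh2.556 arrays lay more than a log2 unit below them. Against premalignant cells, Il7r was 3.23-fold lower in shEzh2.556 lymphomas (log2 difference -1.69, SE 0.20, adjusted p = 0.000149). In shEzh2.781 lymphomas its log2 difference was 0.20 (95% interval -0.25 to 0.64, adjusted p = 0.672), and the sign turned without premalignant array 1 (-0.16) or shEzh2.781 array 1 (-0.01). The averaged lymphoma difference of -0.75 (SE 0.18, adjusted p = 0.0132) therefore mixes a group that fell with one that did not pass the test. It lost its call without premalignant array 2 (-0.39, adjusted p = 0.182) and with the 4 lymphomas fitted as 1 group (adjusted p = 0.605).

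Crlf2 encodes the receptor chain that joins the interleukin-7 receptor alpha chain to bind TSLP, a cytokine that also acts on early B cells. Crlf2 had log2 signals of 8.10 and 7.83 in shEzh2.781 lymphomas and 8.30 and 8.04 in shEzh2.556 lymphomas, against 8.16 and 8.21 in premalignant cells. The lymphoma arrays lay on both sides of the premalignant ones. The averaged difference was -0.12 (95% interval -0.37 to 0.14, adjusted p = 0.583), and neither hairpin passed the test against premalignant cells. Of the 2 chains of the TSLP receptor, Il7r was thus called in shEzh2.556 lymphomas and Crlf2 had a log2 difference of -0.02 (adjusted p = 0.936), and whether the 2 genes differed in response was not tested.

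Il2ra encodes CD25, the high-affinity chain of the interleukin-2 receptor, which in mice marks pre-B cells after heavy chain rearrangement and also activated and regulatory T cells. Its log2 signal was 6.75 and 7.42 in shEzh2.781 lymphomas and 6.90 and 6.94 in shEzh2.556 lymphomas, against 8.71 and 9.53 in premalignant cells. All 4 lymphoma arrays lay more than a log2 unit below the lower premalignant array. Il2ra was 4.34-fold lower in the lymphomas (log2 difference -2.12, SE 0.21, adjusted p = 4.02e-05). The fall was -2.04 (SE 0.25, adjusted p = 0.000252) with shEzh2.781 and -2.20 (SE 0.25, adjusted p = 8.64e-05) with shEzh2.556. The hairpins differed by 0.16 (95% interval -0.38 to 0.70, adjusted p = 0.665). Il2ra was called in every alternative run, with averaged differences from -2.53 to -1.71. T cells also carry CD25. Among T cell markers, Cd4 had 6.30 and 6.29 with shEzh2.781 and 6.64 and 6.40 with shEzh2.556, against 7.51 and 8.57 in premalignant cells. Cd8a had 6.32 and 6.50 with shEzh2.781 and 6.63 and 6.56 with shEzh2.556, against 7.48 and 8.28 in premalignant cells. The CD3 chain genes did not fall in the same way. Cd3e had 6.96 and 7.32 with shEzh2.781 and 7.58 and 7.64 with shEzh2.556, against 7.09 and 7.44. Cd3g had 5.58 and 6.48 with shEzh2.781 and 6.17 and 6.10 with shEzh2.556, against 6.05 and 6.19. Cd3d lay between 5.80 and 6.03 on all arrays. Cd2 went the other way from Cd4 and Cd8a, with 10.51 and 11.04 for shEzh2.781 and 11.08 and 11.42 for shEzh2.556, against 10.37 and 10.08. It was the 1 listed T cell marker called higher. Its signal lay far above that of the CD3 chain genes on every array, and which cells gave it was not tested. The mean log2 signal of 15 measured T cell markers was 6.66 and 6.85 with shEzh2.781 and 6.97 and 6.99 with shEzh2.556, against 6.95 and 7.25 in premalignant cells. Of those markers 1 was higher and 3 were lower in the lymphomas, with a median difference of -0.09 (0 higher and 2 lower without premalignant array 2), and their part in the Il2ra result was not tested.

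Kit and Flt3 encode class III receptor tyrosine kinases, the receptors for stem cell factor and FLT3 ligand. Lymphoid progenitors carry these receptors, and B-lineage cells lose them as they mature. Kit had log2 signals of 6.24 and 6.38 in shEzh2.781 lymphomas and 6.81 and 6.54 in shEzh2.556 lymphomas, against 6.85 and 7.04 in premalignant cells. All 4 lymphoma arrays were lower, though shEzh2.556 array 1 lay just under premalignant array 1. Kit fell in the lymphomas by 0.45 on the log2 scale (SE 0.11, adjusted p = 0.0186). With shEzh2.781 the difference was -0.64 (SE 0.13, adjusted p = 0.00824), and with shEzh2.556 it was -0.27 (SE 0.13, adjusted p = 0.178). Kit was not called in the averaged comparison without premalignant array 2 (-0.35, adjusted p = 0.166), without shEzh2.556 array 2 (-0.38, adjusted p = 0.052) or with the lymphomas as 1 group (adjusted p = 0.178). The shEzh2.781 call was also lost without premalignant array 2 (-0.54, adjusted p = 0.0947). The mean of 10 mast cell and basophil markers, which mark other KIT-bearing cells, was 5.30 and 5.34 with shEzh2.781 and 5.48 and 5.45 with shEzh2.556, against 5.54 and 5.75 in premalignant cells. Of those 10 markers 0 were higher and 3 lower in the lymphomas (2 lower at the fewest on leaving out an array), and their part in the Kit result was not tested.

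Flt3 had log2 signals of 7.11 and 7.37 in shEzh2.781 lymphomas and 7.26 and 7.42 in shEzh2.556 lymphomas, against 7.63 and 8.24 in premalignant cells. The groups did not overlap, and the premalignant arrays were further apart than the lymphoma arrays. The averaged fall was -0.65 (SE 0.15, adjusted p = 0.0139), with -0.70 (SE 0.18, adjusted p = 0.0266) for shEzh2.781 and -0.60 (SE 0.18, adjusted p = 0.038) for shEzh2.556. Premalignant array 2 decided the size: without it the differences were -0.34, -0.39 and -0.29 (adjusted p = 0.178, 0.229 and 0.203). The averaged call was also lost without shEzh2.556 array 1 (-0.61, adjusted p = 0.0501) and with the lymphomas as 1 group (adjusted p = 0.0719). The shEzh2.781 call was lost under quantile normalization (-0.61, adjusted p = 0.0603) and without shEzh2.781 array 1 (-0.57, adjusted p = 0.0865). The shEzh2.556 call was lost under quantile normalization (-0.56, adjusted p = 0.0558) and without shEzh2.556 array 1 (-0.52, adjusted p = 0.211) or array 2 (-0.68, adjusted p = 0.0791). Dendritic cells and stem or progenitor cells also carry FLT3. Among dendritic cell markers, Siglech had 5.78 and 6.09 with shEzh2.781 and 6.28 and 6.12 with shEzh2.556, against 8.35 and 9.26 in premalignant cells. Ccr9 had 6.57 and 6.56 with shEzh2.781 and 6.26 and 5.93 with shEzh2.556, against 8.07 and 9.14 in premalignant cells. Xcr1 went the other way, with 6.37 and 6.15 for shEzh2.781 and 6.18 and 5.98 for shEzh2.556, against 5.60 and 5.71. The mean of 9 dendritic cell markers was 6.16 and 6.12 with shEzh2.781 and 6.19 and 5.98 with shEzh2.556, against 6.54 and 6.99 in premalignant cells, where array 2 was again the higher. The mean of 8 stem and progenitor markers was 6.33 and 6.30 with shEzh2.781 and 6.39 and 6.31 with shEzh2.556, against 6.66 and 6.90 in premalignant cells. Mpo had the largest fall among them, with 8.18 and 8.24 for shEzh2.781 and 6.78 and 6.48 for shEzh2.556, against 8.83 and 9.79. Meis1 and Hoxa9 were also lower on all 4 lymphoma arrays. Arrays of Cd34, Gata2, Procr, Mecom and Hlf overlapped between lymphomas and premalignant cells. The list's median difference was -0.37 with shEzh2.781 and -0.10 with shEzh2.556. Of the dendritic cell markers 1 was higher and 4 were lower in the lymphomas, of the stem and progenitor markers 0 and 3 (2 lower in each list without premalignant array 2), and their part in the Flt3 and Kit results was not tested.

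**Figure D2:**
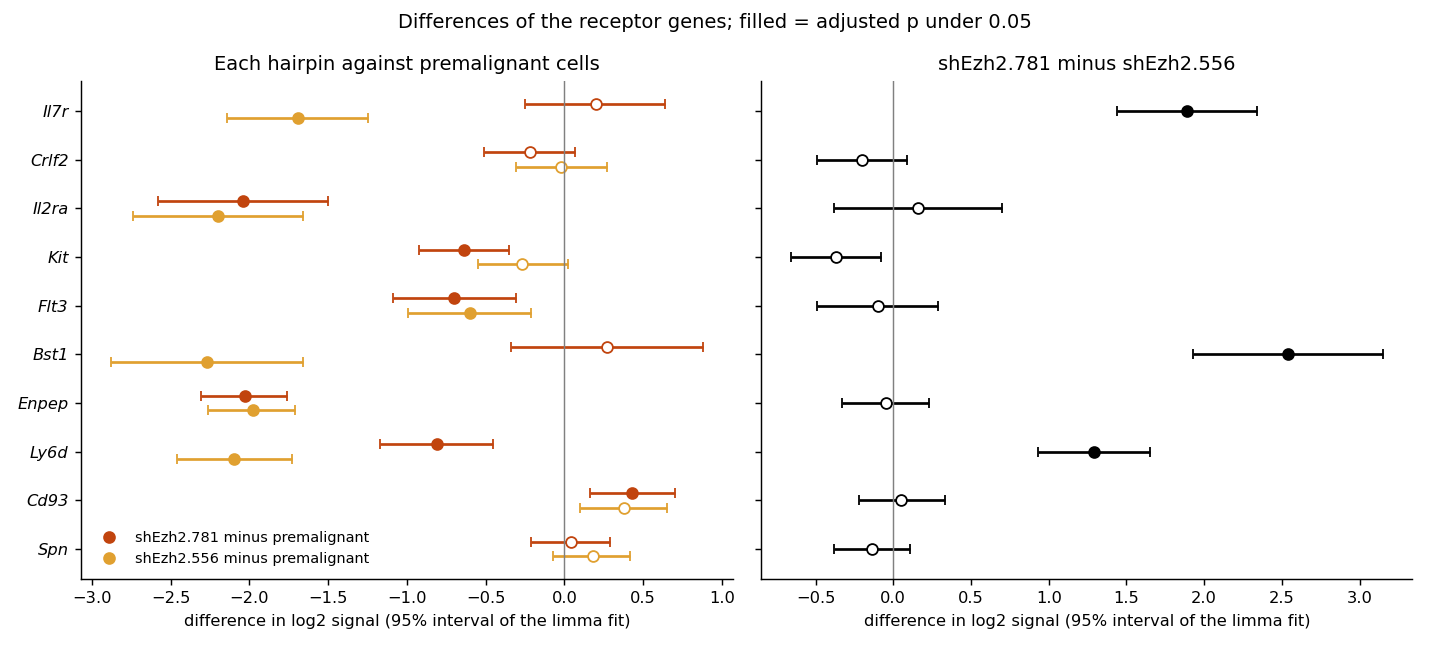
Differences in log2 signal (horizontal axes) of the 10 receptor genes, with 95% intervals of the limma fit; filled points have an adjusted p under 0.05. The left panel sets each hairpin against premalignant cells and the right panel gives shEzh2.781 minus shEzh2.556, in which Bst1 (2.54), Il7r (1.89) and Ly6d (1.29) lie clear of 0.

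Bst1 and Enpep encode ectoenzymes that serve as pre-B markers. BST1 (BP-3, CD157) is a cell surface ADP-ribosyl cyclase found on early B cells, on bone marrow stroma and on myeloid cells. Bst1 had log2 signals of 10.30 and 9.13 in shEzh2.781 lymphomas and 7.36 and 6.99 in shEzh2.556 lymphomas, against 9.54 and 9.35 in premalignant cells. The shEzh2.781 arrays lay on either side of the premalignant ones and both shEzh2.556 arrays lay below. In shEzh2.556 lymphomas Bst1 was 4.82-fold lower (log2 difference -2.27, SE 0.28, adjusted p = 0.000169). In shEzh2.781 lymphomas the difference was 0.27 (95% interval -0.34 to 0.88, adjusted p = 0.673). That value rested on which array was kept: it was 0.85 (adjusted p = 0.00207) without shEzh2.781 array 2 and -0.32 without shEzh2.781 array 1. The averaged difference of -1.0 (SE 0.24, adjusted p = 0.0148) was not called without premalignant array 1 (-0.91, adjusted p = 0.165), premalignant array 2 (-1.09, adjusted p = 0.0971) or shEzh2.556 array 2 (-0.91, adjusted p = 0.0523), nor with the lymphomas as 1 group (adjusted p = 0.609).

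ENPEP (BP-1, aminopeptidase A) removes acidic amino acids from peptides such as angiotensin II and, in the mouse B lineage, appears on late pro-B and dividing pre-B cells. Enpep had log2 signals of 5.70 and 5.76 in shEzh2.781 lymphomas and 5.71 and 5.85 in shEzh2.556 lymphomas, against 7.62 and 7.91 in premalignant cells. The 4 lymphoma arrays lay close together and far below both premalignant arrays. Enpep was 4.02-fold lower in the lymphomas (log2 difference -2.01, SE 0.11, adjusted p = 3.9e-07), with -2.03 (SE 0.13, adjusted p = 1.56e-06) for shEzh2.781 and -1.98 (SE 0.13, adjusted p = 1.19e-06) for shEzh2.556. The hairpins differed by -0.05 (95% interval -0.33 to 0.23, adjusted p = 0.8). The call held in every alternative in which Enpep was tested, with averaged differences from -2.15 to -1.86. A filter that kept genes at or above the median mean signal left Enpep and Kit out. The values carry no detection call, so how far the lymphoma signal of Enpep lay above background is not known. Enpep and Bst1, though paired as pre-B markers, thus parted in shEzh2.781 lymphomas, where Enpep was called lower and Bst1 was not. The difference between the 2 genes was not tested.

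Ly6d, Cd93 and Spn are stage markers of other protein families. Ly6d encodes a small lipid-anchored LY6 protein that marks lymphoid progenitors biased to the B lineage and stays on B cells. Ly6d had log2 signals of 9.39 and 9.58 in shEzh2.781 lymphomas and 8.30 and 8.09 in shEzh2.556 lymphomas, against 10.03 and 10.56 in premalignant cells. The 3 groups did not overlap and lay in steps, with shEzh2.556 lowest. Ly6d fell by 1.45 on the log2 scale in the averaged comparison (SE 0.14, adjusted p = 3.2e-05), a 2.74-fold change. It was 1.75-fold lower with shEzh2.781 (-0.81, SE 0.16, adjusted p = 0.00754) and 4.27-fold lower with shEzh2.556 (-2.10, SE 0.16, adjusted p = 5.47e-06). The shEzh2.781 call was lost without premalignant array 2 (-0.54, adjusted p = 0.0822), and the averaged call with the lymphomas as 1 group (adjusted p = 0.0834).

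Cd93 encodes AA4.1, a lectin-like membrane protein carried from the pro-B stage to newly formed splenic B cells. Cd93 had log2 signals of 11.74 and 11.63 in shEzh2.781 lymphomas and 11.58 and 11.69 in shEzh2.556 lymphomas, against 11.13 and 11.39 in premalignant cells. It was the only 1 of the 10 called higher, and all 4 lymphoma arrays lay above both premalignant arrays. The averaged difference was 0.40 (SE 0.11, adjusted p = 0.0247), with 0.43 (SE 0.12, adjusted p = 0.0471) for shEzh2.781 and 0.38 (SE 0.12, adjusted p = 0.0564) for shEzh2.556. These values lie near the threshold. The averaged call was lost without premalignant array 1 (0.27, adjusted p = 0.231), shEzh2.781 array 1 (0.38, adjusted p = 0.0555) or shEzh2.556 array 2 (0.37, adjusted p = 0.0636), and with the lymphomas as 1 group (adjusted p = 0.0902). The shEzh2.781 call was lost under quantile normalization (0.41, adjusted p = 0.0681) and without any 1 array except premalignant array 2, for example without premalignant array 1 (0.30, adjusted p = 0.219). The shEzh2.556 difference was called under quantile normalization (0.42, adjusted p = 0.0406) and when premalignant array 2 was left out (0.51, adjusted p = 0.0377), among other settings. The hairpins differed by 0.05 (adjusted p = 0.788).

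Spn encodes CD43, a heavily glycosylated sialoprotein of pro-B cells, plasma cells, T cells and myeloid cells that resting B cells lack. Spn had log2 signals of 8.60 and 8.60 in shEzh2.781 lymphomas and 8.65 and 8.82 in shEzh2.556 lymphomas, against 8.53 and 8.58 in premalignant cells. The lymphoma arrays lay above the premalignant ones by a small margin. The averaged difference was 0.11 (95% interval -0.11 to 0.32, adjusted p = 0.546) and was not called in any alternative run. The lymphomas, on which beads against CD43 had been used, were thus not called lower in Spn than the sorted splenic B cells. The effect of the beads on Spn was not tested, since no lymphoma cells from before the beads were analysed here. The surface protein was not measured here.

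Between the 2 hairpins, 3 of 10 genes were higher in shEzh2.781 than in shEzh2.556 lymphomas (Il7r, Bst1 and Ly6d), 0 were lower and 7 did not pass the test. Over all genes 5.5% were called higher and 4.53% lower. At an unadjusted p under 0.05 the count was 4, Kit being the fourth with a difference of -0.37 (95% interval -0.66 to -0.08, adjusted p = 0.089). This comparison uses no premalignant array for its means. Bst1 was 5.81-fold higher (log2 difference 2.54, SE 0.28, adjusted p = 0.000264), Il7r 3.7-fold higher (1.89, SE 0.20, adjusted p = 0.000244) and Ly6d 2.44-fold higher (1.29, SE 0.16, adjusted p = 0.000738). In each of these genes both shEzh2.781 arrays lay above both shEzh2.556 arrays. All 3 were called in every alternative run, with differences from 1.95 to 3.12 for Bst1, 1.68 to 2.10 for Il7r and 1.18 to 1.40 for Ly6d. The 2 shEzh2.781 arrays differed from each other by more for Bst1 than for the other receptor genes.

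Neutrophil markers were also higher in shEzh2.781 than in shEzh2.556 lymphomas. Their mean log2 signal over 11 genes was 7.96 and 8.71 in shEzh2.781 lymphomas and 6.85 and 6.26 in shEzh2.556 lymphomas, against 9.29 and 9.47 in premalignant cells. All 11 were lower in the averaged lymphomas (median difference -2.05), 7 of 11 were lower with shEzh2.781 and 11 of 11 with shEzh2.556, and 11 of 11 were higher in shEzh2.781 than in shEzh2.556 lymphomas (median 1.99). The count with shEzh2.781 was 4 without premalignant array 2 and 10 on leaving out shEzh2.781 array 2, and the other 3 counts were 9 to 11 when 1 array was left out. Ngp, a neutrophil granule protein gene, had 9.75 and 10.50 with shEzh2.781 and 8.30 and 7.23 with shEzh2.556, against 11.35 and 11.45 in premalignant cells. Myeloid cells carry BST1, and the marker mean stood in the same order of groups as Il7r, Bst1 and Ly6d between the hairpins. Within groups, the array with the higher neutrophil mean had the higher Ly6d signal in all 3 groups, the higher Il7r signal in shEzh2.556 lymphomas and premalignant cells but not in shEzh2.781 lymphomas, and the higher Bst1 signal in shEzh2.556 lymphomas but not in shEzh2.781 lymphomas or premalignant cells. For Bst1 the pairs of signal and neutrophil mean were 10.30 with 7.96 and 9.13 with 8.71 in shEzh2.781 lymphomas and 7.36 with 6.85 and 6.99 with 6.26 in shEzh2.556 lymphomas, against 9.54 with 9.29 and 9.35 with 9.47 in premalignant cells. The part of neutrophil RNA in the receptor results was not tested.

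**Figure D3:**
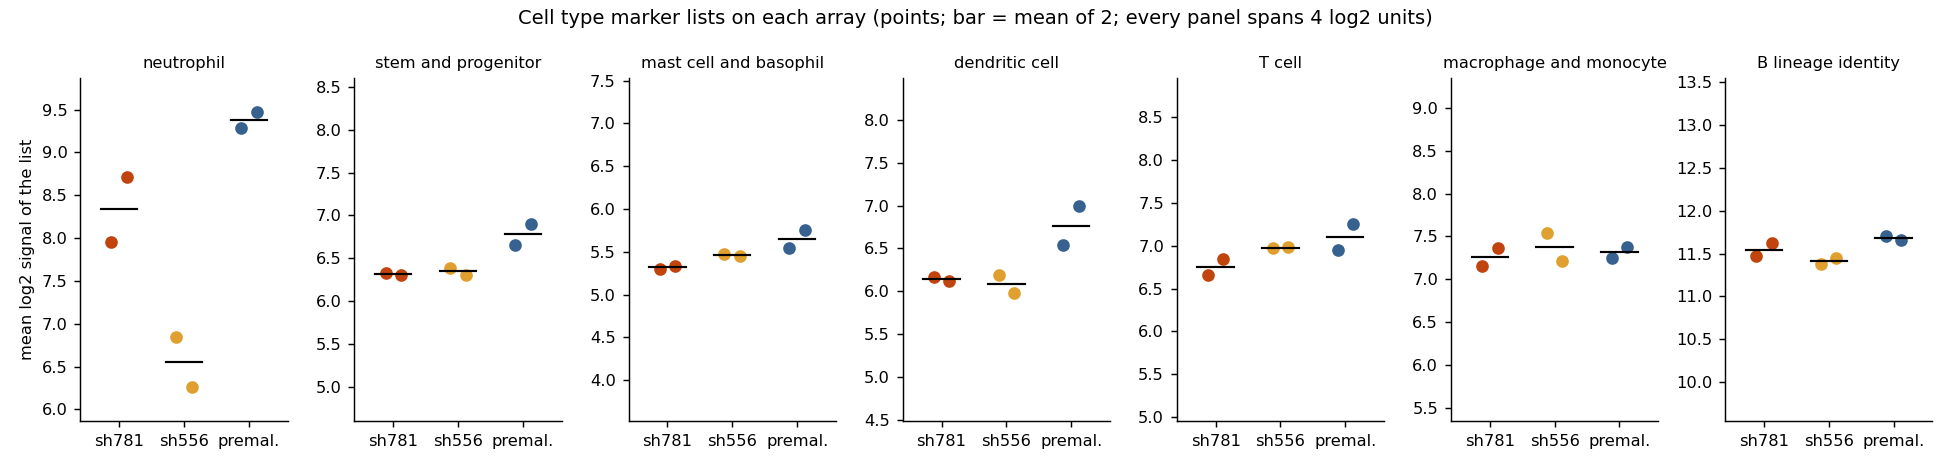
Mean log2 signal of 7 cell type marker lists (vertical axes) on each array, with shEzh2.781 lymphomas, shEzh2.556 lymphomas and premalignant cells from left to right. Points are arrays and bars are means of 2. The neutrophil mean spans 6.26 to 9.47, and the B lineage mean stays between 11.38 and 11.71.

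B lineage markers had high signal on all arrays. Among them, Blk had 10.05 and 10.40 with shEzh2.781 and 9.22 and 9.35 with shEzh2.556, against 10.68 and 10.90 in premalignant cells. The mean over 9 measured genes was 11.47 and 11.62 with shEzh2.781 and 11.38 and 11.45 with shEzh2.556, against 11.71 and 11.66 in premalignant cells. With shEzh2.556 against premalignant cells, 1 of the 9 was higher and 4 were lower. Of those 9 genes 1 was higher and 3 were lower in the lymphomas (1 lower without premalignant array 2). Macrophage and monocyte markers averaged 7.15 and 7.37 with shEzh2.781 and 7.54 and 7.21 with shEzh2.556, against 7.25 and 7.38 in premalignant cells, and 3 of 12 were higher, a count of 0 without premalignant array 1 or shEzh2.556 array 1 and of 1 on leaving out premalignant array 2 or the second shEzh2.781 array. Erythroid markers averaged 6.64 and 7.18 with shEzh2.781 and 8.48 and 7.92 with shEzh2.556, against 8.19 and 8.46 in premalignant cells, with 4 of 7 lower in the averaged lymphomas and 7 of 7 lower in shEzh2.781 than in shEzh2.556. Leaving out 1 array gave 2 (premalignant array 2) to 6 (shEzh2.781 array 2) and 3 (shEzh2.556 array 1) to 6 for these 2 erythroid counts. Of the eosinophil markers 3 of 6, of the NK cell markers 5 of 9 and of the endothelial and stromal markers 2 of 9 were lower in the lymphomas, and 0 were higher. Leaving out 1 array gave 3 to 4, 2 to 5 and 1 to 3 for these counts, the fewest NK cell markers (2) without premalignant array 1 and the fewest endothelial and stromal markers (1) without premalignant array 2 or shEzh2.556 array 2. The part of these cells in the receptor results was not tested.

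Signalling genes of these receptors went both ways. Of 17 measured genes of interleukin-7 and TSLP signalling, 3 were higher and 4 lower in the lymphomas, with a median difference of -0.06 beside 0.03 over all genes. The number higher was 1 without either premalignant array or either shEzh2.556 array, and the number lower was 2 on leaving out premalignant array 2, the second array of shEzh2.781 or either shEzh2.556 array. Bcl2, the survival gene downstream of the interleukin-7 receptor, had 9.61 and 9.85 with shEzh2.781 and 9.56 and 9.93 with shEzh2.556, against 8.62 and 9.05 in premalignant cells (difference 0.90, SE 0.14, adjusted p = 0.00121). All 4 lymphoma arrays were above both premalignant ones. Ccnd2 and Ccnd3 encode the D-type cyclins of dividing B cells. Ccnd2 fell by 1.51 on the log2 scale (SE 0.16, adjusted p = 6.33e-05), with 7.77 and 7.66 in shEzh2.781 and 8.04 and 8.02 in shEzh2.556 lymphomas, against 9.01 and 9.74 in premalignant cells. Ccnd3 fell by 0.84 (SE 0.13, adjusted p = 0.00103). The kinase gene Jak1 (0.03, adjusted p = 0.889), the transducer gene Stat5a (-0.01, adjusted p = 0.97) and the STAT5 target Cish (-0.11, adjusted p = 0.57) did not pass the test. The ligand genes were near the low end of the scale, with Il7 at 4.02 to 4.35 and Tslp at 3.85 to 3.92 over the 6 arrays. Il2rg and Jak3 were not analysed here.

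Between the hairpins, 2 of the 17 were higher in shEzh2.781 lymphomas and 0 lower. Socs2, a STAT5-induced feedback inhibitor, had 11.13 and 10.05 with shEzh2.781 and 9.46 and 9.25 with shEzh2.556 (difference 1.23, SE 0.25, adjusted p = 0.0122). Pim1, a STAT5-induced survival kinase, had 10.86 and 10.68 with shEzh2.781 and 10.04 and 10.12 with shEzh2.556 (difference 0.69, SE 0.13, adjusted p = 0.00732). Both calls depended on single arrays. Socs2 was not called without shEzh2.556 array 1 (1.34, adjusted p = 0.0579) or array 2 (1.13, adjusted p = 0.0774), and its difference was 0.69 without shEzh2.781 array 1. Pim1 was not called without shEzh2.556 array 1 (0.65, adjusted p = 0.063), so that the list then had 0 calls. Cish had a difference of -0.29 (adjusted p = 0.123).

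Of 4 measured partners of the interleukin-2 receptor, 1 was higher and 2 were lower in the lymphomas. The number lower was 0 on leaving out either premalignant array, the first shEzh2.781 array or the second shEzh2.556 array, and 1 without shEzh2.556 array 1. Il15ra, the alpha chain of the interleukin-15 receptor and nearest relative of Il2ra, was higher by 0.70 (SE 0.12, adjusted p = 0.00213), with 8.55 and 8.50 in shEzh2.781 and 8.10 and 8.55 in shEzh2.556 lymphomas, against 7.73 and 7.72 in premalignant cells. So the alpha chain genes of these sister receptors went opposite ways, Il2ra down and Il15ra up. Of 15 measured genes of KIT and FLT3 signalling 2 were higher and 5 lower (median -0.13), and the number lower ran between 0 (premalignant array 2 left out) and 4 (shEzh2.556 array 2 left out) when arrays were left out in turn. Spred1, an inhibitor of RAS and MAP kinase signalling, was higher by 1.55 (SE 0.17, adjusted p = 7.88e-05), with 7.97 and 8.72 in shEzh2.781 and 8.61 and 8.89 in shEzh2.556 lymphomas, against 7.02 and 6.98 in premalignant cells. The ligand gene Kitl lay between 4.66 and 5.31 on all arrays, and Lyn was not analysed here.

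**Figure D4:**
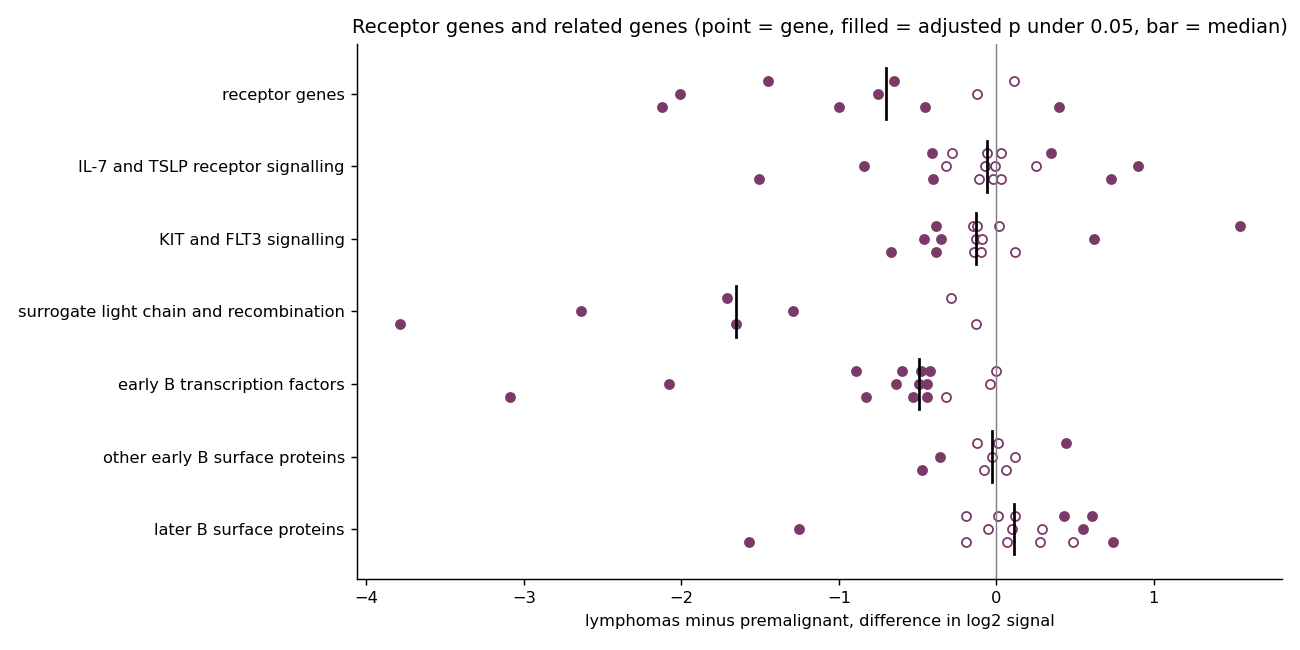
Log2 differences, lymphomas minus premalignant cells (horizontal axis), of the 10 receptor genes and of genes in 6 related lists (rows). Each point is a gene, filled where the adjusted p is under 0.05, and vertical bars are medians (-0.70 for the receptor genes, -1.65 for surrogate light chain and recombination genes, 0.11 for later B surface proteins).

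Other genes of the pro-B and pre-B stages were lower too. Of 7 surrogate light chain and recombination genes, 5 were lower in the lymphomas and 0 higher, with a median of -1.65, and 5 stayed called when any 1 array was left out. Igll1, the lambda 5 part of the surrogate light chain of the pre-B receptor, had 8.41 and 7.11 with shEzh2.781 and 7.68 and 7.73 with shEzh2.556, against 11.26 and 11.79 in premalignant cells (difference -3.79, SE 0.27, adjusted p = 3.15e-06). Its partner Vpreb1 fell by 1.29 (SE 0.11, adjusted p = 8.99e-06). Dntt, the terminal transferase of pro-B cells, had 5.04 and 5.03 with shEzh2.781 and 5.16 and 5.19 with shEzh2.556, against 7.38 and 8.11 in premalignant cells (difference -2.64, SE 0.16, adjusted p = 9.1e-07). The recombinase genes also fell, Rag1 by 1.71 (SE 0.13, adjusted p = 4.54e-06) and Rag2 by 1.65 (SE 0.11, adjusted p = 1.34e-06). Like Il7r and Ly6d, both were higher in shEzh2.781 than in shEzh2.556 lymphomas, Rag1 by 0.96 (adjusted p = 0.00259) and Rag2 by 0.88 (adjusted p = 0.00134).

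Of 15 early B transcription factor genes 12 were lower and 0 higher (median -0.49), and 6 lower without premalignant array 2. Lef1, a WNT-pathway factor of pro-B and pre-B cells, had 7.77 and 7.73 with shEzh2.781 and 7.89 and 7.82 with shEzh2.556, against 10.73 and 11.06 in premalignant cells (difference -3.09, SE 0.11, adjusted p = 1.18e-08). Sox4, needed for pro-B cells in mice, fell by 2.08 (SE 0.17, adjusted p = 8.96e-06). Erg fell by 0.89 (adjusted p = 0.000336), Runx1 by 0.83 (adjusted p = 0.000528) and Foxo1, an activator of Il7r and of the recombinase genes, by 0.60 (adjusted p = 0.00149). Ebf1 (-0.49, adjusted p = 0.00566) and Pax5 (-0.44, adjusted p = 0.00936), which hold B cell identity, had smaller falls and lay between 11.43 and 12.09 and between 11.52 and 12.06 over the 6 arrays; their calls were lost without premalignant array 2 (-0.47, adjusted p = 0.0537 and -0.39, adjusted p = 0.0844).

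Surface proteins of other stages went both ways. Of 9 other early B surface genes 1 was higher and 2 lower (median -0.03), and of 16 genes for surface proteins of later B cells 4 were higher and 2 lower (median 0.11). Of the other early genes 0 were called in either direction without premalignant array 1 or array 2, and 1 was lower without shEzh2.781 array 2 or shEzh2.556 array 1. Of the later genes, 2 were higher without premalignant array 2 and 5 on leaving out shEzh2.781 array 1, with 2 lower throughout. Among the later genes Cd22, an inhibitory lectin of mature B cells, was higher by 0.55 (SE 0.10, adjusted p = 0.00309) and Ly86, the MD-1 partner of the RP105 receptor, by 0.61 (SE 0.09, adjusted p = 0.000903). Cd72, an inhibitory coreceptor, fell by 1.25 (SE 0.11, adjusted p = 1.33e-05), and Cd1d1, which presents lipid antigens, by 1.57 (SE 0.11, adjusted p = 2.37e-06). The fall of Cd72 differed by hairpin, with 11.84 and 11.87 in shEzh2.781 lymphomas and 10.43 and 10.20 in shEzh2.556 lymphomas, against 12.22 and 12.44 in premalignant cells.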

How the data were processed

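Biotin-labelled total RNA was run on Affymetrix Mouse Gene 1.0 ST arrays, per the labels. The authors deposited log2 values, normalized and summarized to 1 value per probe set; how they did so is not given in the sources used here, and the log2 scale was read from the values (2.3 to 14.22, array medians 6.75 to 6.91). Precision is limited by the number of arrays. The platform annotation gave 1 symbol to 21789 of 35512 probe sets, several to 1621 and none to 12102. Of the 999 genes with more than 1 named probe set, the brightest was kept, giving 19938 genes.

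One limma model (version 3.58.1, R 4.3.3) held the 3 groups, with 8.51 prior and 3 residual degrees of freedom after empirical Bayes moderation, and Benjamini-Hochberg adjustment ran over all genes. Calls were made at 0.05 and intervals are 95%. The fit was also run on simulated arrays of 19938 genes, for lymphomas against premalignant cells. Changes of 0.5, 1 and 2 log2 units were recovered in 40.6%, 98.8% and 100% of cases. Of the calls made there, 5.1% were false. The simulation changed only a small share of genes and drew independent noise. Its figures therefore need not hold for these data, where a larger share was called.

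Alternatives were quantile normalization, median centring, a low-signal filter, the mean of all probe sets, an intensity trend, a replicate block, the lymphomas as 1 group, and leaving out each array. The receptor genes and all lists were chosen with earlier results of these data known. All receptor genes, Ezh2 and members of the lists where they are described were named, and by rule the 2 genes most like each called receptor gene. Promoters came from RefSeq (GRCm38.p6), a build that the array values do not name. Python 3.11.15 with numpy 2.4.6, pandas 2.3.3 and matplotlib 3.10.9 served for tables and plots.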

Additional observations from a re-analysis of the deposited data

Results flagged for a closer look

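Several genes differed between the hairpins, tested as shEzh2.781 minus shEzh2.556 in the limma fit with adjustment over all genes. Because the premalignant arrays enter both hairpin comparisons alike, this is also the difference of the 2 effects. Among the receptor genes it was 1.89 for Il7r, 2.54 for Bst1 and 1.29 for Ly6d. Among the signalling genes it was 1.23 for Socs2 (adjusted p = 0.0122), 0.69 for Pim1 (adjusted p = 0.00732) and -0.56 for Kitl, the KIT ligand (adjusted p = 0.0118). Among the surrogate light chain and recombination genes it was -0.54 for Vpreb2 (adjusted p = 0.0162), 0.43 for Vpreb3 (adjusted p = 0.0376), 0.96 for Rag1 (adjusted p = 0.00259) and 0.88 for Rag2 (adjusted p = 0.00134). Among the transcription factors it was 0.74 for Irf4 (adjusted p = 0.00378) and 1.49 for Sox4 (adjusted p = 0.00103). Among the other surface proteins it was -0.57 for Cd34 (adjusted p = 0.0138), -0.96 for Cxcr5, the follicle homing receptor (adjusted p = 0.0315), 0.78 for Cd1d1 (adjusted p = 0.00313) and 1.54 for Cd72 (adjusted p = 3.74e-05). The values of Rag1, Rag2, Irf4, Sox4, Cd1d1 and Cd72 were called when any 1 array was left out, as were those of the 3 receptor genes. Cxcr5 was not called without either premalignant array (-0.96, adjusted p = 0.057 each), shEzh2.556 array 2 (-0.64, adjusted p = 0.157) or shEzh2.781 array 1 (-0.55, adjusted p = 0.105). Vpreb3 was not called without any 1 lymphoma array (0.37 to 0.50, highest adjusted p = 0.18). Vpreb2 was not called without shEzh2.556 array 1 (-0.50, adjusted p = 0.108) or array 2 (-0.59, adjusted p = 0.0518), or shEzh2.781 array 2 (-0.43, adjusted p = 0.135). Kitl was not called without shEzh2.556 array 1 (-0.51, adjusted p = 0.0886) or shEzh2.781 array 2 (-0.51, adjusted p = 0.0695), and Cd34 without shEzh2.556 array 2 (-0.47, adjusted p = 0.0811) or shEzh2.781 array 2 (-0.51, adjusted p = 0.0767). Socs2 was not called without shEzh2.556 array 1 or 2 (highest adjusted p = 0.0774), nor Pim1 without shEzh2.556 array 1 (adjusted p = 0.063). With 2 arrays a group, no single array could be tested as an outlier.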

How the results depend on the processing

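The receptor genes called numbered 8 in lymphomas against premalignant cells, 6 with shEzh2.781, 6 with shEzh2.556 and 3 between hairpins. With the 4 lymphomas as 1 group only Enpep and Il2ra were called in the first comparison, a count of 2, and 1091 of all genes were called in place of 3033. Leaving out each array in turn gave 4 to 8, 3 to 6, 5 to 6 and 3 to 3 receptor genes, and 1721 to 2833, 1103 to 2048, 1949 to 3669 and 718 to 2085 of all genes. Same-numbered arrays did not deviate together (correlations of -0.091, -0.124 and 0.064), and with a replicate block the counts were 8, 5, 6 and 3, Cd93 losing its shEzh2.781 call (adjusted p = 0.058). Of the receptor genes' values under an alternative, 428 kept direction and side of the threshold, 33 lost a call, 6 gained one and 15 changed sign. None of the 15 was of a difference called with all arrays. Against premalignant cells with shEzh2.781, Il7r ranged from -0.16 (without premalignant array 1) to 0.56 when arrays were left out in turn, with -0.01 for shEzh2.781 array 1 left out. Bst1 ranged from -0.32 to 0.85, the ends given by leaving out shEzh2.781 array 1 and array 2. With shEzh2.556, Crlf2 was 0.08 under quantile normalization, 0.01 with premalignant array 2 left out and 0.11 with shEzh2.556 array 2 left out (-0.15 at the lowest). Between hairpins, Enpep was 0.06 under quantile normalization, 0.06 with centred arrays and -0.12 to 0.02 on leaving out an array. Flt3 was 0.01 with centred arrays and -0.23 to 0.03 on leaving out an array. Cd93 was -0.02 under quantile normalization, -0.0022 without shEzh2.781 array 1 and -0.0034 without shEzh2.556 array 1, and Il2ra was -0.18 to 0.50 on leaving out an array. The cause was not tested. Centring moved the median of all genes by 0.12 for shEzh2.781 against premalignant cells and by 0.11 between hairpins, and the low-signal filter by -0.15 for shEzh2.556 against premalignant cells and by 0.16 between hairpins. Without detection calls, the depth of signal over background is unknown for low genes such as Enpep and Kit.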

Other observations

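The genes whose log2 signal, centred on each gene's own mean, ran closest to each called receptor gene over the 6 arrays were found among 16846 genes by root mean square difference. Enpep ran closest to Pde5a (0.11), a cyclic GMP phosphodiesterase gene, and Ubash3a (0.11), a suppressor of T cell receptor signalling. Il2ra ran closest to Gpr171 (0.17) and Cd7 (0.18), a surface protein gene of T cells and NK cells. Il7r ran closest to Emid1 (0.24) and Rsph9 (0.27), and Bst1 to Rsph9 (0.33) and Pkp4 (0.35), so 1 gene was among the nearest of both. Ly6d ran closest to Ctsg (0.13), the cathepsin G gene of neutrophil granules, and Ppp1r16b (0.16). Kit ran closest to Crat (0.04) and Slc22a23 (0.05), Flt3 to Ypel5 (0.07) and Lat (0.08), the adaptor of T cell receptor signalling, and Cd93 to Letmd1 (0.05) and Lratd2 (0.06). These are descriptions over 6 arrays in 3 groups, and genes with a small spread reach small differences easily.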
